A study of Mus musculus with 30 samples.

Results

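The genes of the MHC class I antigen display system were followed through natural killer (NK) cells sorted from mice that carried skin grafts. The set was chosen by symbol and holds 10 genes of the 30587 entries used from the deposited expression table: the light chain gene B2m, the heavy chain genes H2-K1, H2-D1, H2-Q4, H2-Q6, H2-Q7, H2-Q10, H2-T22 and H2-T23, and the peptide transporter gene Tap1. All 10 were found under these symbols, and all 10 passed the minimum for testing, which was 10 units of signal or more in 3 libraries or more. RNA was sequenced from 30 libraries in 10 groups of 3. All were NKp46-GFP+ cells of the recipient, in which Cre expressed from the NKp46 locus switches the RosamTmG reporter to green, so the reporter marks cells that have expressed NKp46.

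In the F1 model, C57BL/6xBalb/c recipients of genotype NKp46+/iCre.Rosa+/mTmG carried m157tgB2m+/- skin and were studied at day 10. In the B6 model, C57BL/6 recipients of genotype NKp46iCre/iCre.RosamTmG/mTmG carried m157tgB2m-/- skin and were studied at day 20. The m157 transgene encodes a mouse cytomegalovirus protein that the activating receptor Ly49H binds. In each model, CD49a+ and CD49b+ cells came from the graft, CD49a+ cells from the recipient's own skin, and CD49b+ cells from spleen and blood. The recipient genotypes name no change in B2m, and only the grafts are labelled as lacking it or as having a single copy. Strain, gene dose of Cre and reporter, graft genotype and day differ together between the models and cannot be told apart. The labels do not give the age, the number of mice behind a library or whether libraries with the same number share a mouse, so the p-values measure the spread between libraries, which may be technical.

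Class I molecules are built from a polymorphic heavy chain and the invariant light chain beta-2 microglobulin, and they carry peptides of the cell's own proteins to its surface. The peptides are cut by the proteasome and moved into the endoplasmic reticulum by the TAP transporter, and heavy chains that find no light chain mostly do not reach the surface. NK cells read class I molecules on other cells through inhibitory receptors such as Ly49 and NKG2A, and they also display class I molecules themselves. H2-K1 and H2-D1 encode the classical, peptide-presenting heavy chains. The H2-Q and H2-T genes encode nonclassical ones: H2-Q6 and H2-Q7 encode Qa-2 antigens, H2-T23 encodes Qa-1, the ligand of NKG2A, and H2-T22 encodes a ligand of some gamma-delta T cells. H2-Q10 encodes a heavy chain that is secreted, mainly by the liver, and H2-Q4 encodes Qb-1.

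B2m lies on chromosome 2 (GRCm38, chr2:122147686-122153083, plus strand), apart from the other members, which lie in the MHC on chromosome 17. From the centromere these are H2-K1 (33996017 to 34000347, minus strand), Tap1 (34187553 to 34197225, plus), H2-D1 (35262730 to 35267499, plus), H2-Q4 (35379617 to 35385290, plus), H2-Q6 (35424850 to 35430055, plus), H2-Q7 (35439155 to 35443773, plus), H2-Q10 (35470089 to 35474563, plus), H2-T23 (36029773 to 36032855, minus) and H2-T22 (36037128 to 36042747, minus). All 10 are annotated as protein coding, and the start of Tap1 overlaps that of Psmb9 on the opposite strand. Expression was read from transcripts, so every value below stands for exon sequence assigned to the gene, some of which related genes share.

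Class I promoters are known for an enhancer A, which NF-kB proteins bind, followed by an interferon-stimulated response element, which interferon regulatory factors bind. The stretches that hold them are shown for H2-K1, H2-Q7 and H2-Q4, which differed between the models below, among others. H2-D1, whose groups overlapped, is shown as well and has the same cores as H2-K1. H2-Q4 and H2-Q10 lack the exact enhancer A core. All sequences are from the reference assembly, and no Balb/c promoter was examined. Whether promoter sequence bears on the differences between the models was not tested. Each line gives 48 bases upstream of the start site, 5′ to 3′ on the gene's own strand, from the RefSeq promoters of GRCm38.p6; capitals mark exact matches to GGGATTCCC, a core of enhancer A, and to TTTCACTT, a core of the interferon element.
H2-K1, chr17:34000422-34000469, minus strand: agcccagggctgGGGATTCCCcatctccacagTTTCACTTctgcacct
H2-D1, chr17:35262912-35262959, plus strand: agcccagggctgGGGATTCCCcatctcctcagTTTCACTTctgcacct
H2-Q6, chr17:35424666-35424713, plus strand: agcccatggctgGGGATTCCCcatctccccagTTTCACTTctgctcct
H2-Q7, chr17:35439010-35439057, plus strand: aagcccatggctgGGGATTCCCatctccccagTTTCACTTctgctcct
H2-Q4, chr17:35379432-35379479, plus strand: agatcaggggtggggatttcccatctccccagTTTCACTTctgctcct
H2-Q10, chr17:35469902-35469949, plus strand: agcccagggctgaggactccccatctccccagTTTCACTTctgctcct
Of the 10 members, 4 held both cores within 250 bases before to 50 bases after the start site (H2-K1, H2-D1, H2-Q6 and H2-Q7), 3 held the interferon core alone (H2-Q4, H2-Q10 and H2-T22), and B2m, Tap1 and H2-T23 held neither. Searched on both strands, the enhancer A core was in 0.353% and the interferon core in 1.6% of the 32851 promoters of the same length, and 5 of these held both. A match is a run of letters and not a measured binding site, and no match says only that these letters are not in this window.

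The deposited signal, outside 10 satellite-like predicted genes, summed to 924625 to 1563336 in the 18 skin libraries and to 773968 to 992418 in the 12 circulating ones. Replicates correlated less in the skin groups (r 0.41 to 0.739 across genes) than in blood and spleen (0.796 to 0.897). A set of 19 pan-leukocyte transcripts such as Ptprc stood at 9.41 to 88.5% of its mean circulating level in the skin libraries and at 90.6 to 109% in the circulating ones. In the B6 skin groups, library 2 stood apart, with 88.5% in graft CD49b, 74.4% in graft CD49a and 78.8% in recipient skin, against 9.41 to 49.8% in the other 6 libraries. In bulk samples, fewer NK cells in a sort and less class I RNA per cell cannot be told apart. NK cell markers were present in every group, with Gzma and Klrk1 among the most abundant: their 10 genes summed to 792 to 897 in F1 recipient skin and 309 to 3435 in B6 recipient skin, against 12493 to 13878 in F1 spleen and 13340 to 14128 in B6 spleen.

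The class I genes are close relatives, and reads that match several of them have to be shared out. Of the stretches of 31 bases in the annotated transcript, 63.3% were shared with another gene for H2-T22, 52.6% for H2-Q7, 50.3% for H2-Q6, 48.7% for H2-T23, 43.4% for H2-Q4, 27.5% for H2-D1, 23.3% for H2-K1 and 18.6% for H2-Q10. Tap1 shared 1.51%, and B2m shared none. Levels of single heavy chain genes are therefore uncertain where reads could be split between copies. GRCm38 is a C57BL/6 assembly, and the F1 recipients are also of Balb/c descent. Which class I genes the Balb/c MHC holds was not examined. How Balb/c reads were assigned was not tested.

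Circulating NK cells of both models carried mostly B2m, H2-K1, H2-D1 and H2-Q7 transcripts. Levels between genes are compared here as signal per kilobase of annotated transcript, as means with the SD of 3 libraries. In F1 spleen, B2m stood highest at 2208 ± 137 per kb, followed by H2-D1 at 1751 ± 154, H2-K1 at 1388 ± 78.8 and H2-Q7 at 657 ± 63.8. In B6 spleen the order of the leading genes was B2m at 2846 ± 166 per kb, H2-K1 at 2373 ± 157, H2-D1 at 1788 ± 176 and H2-Q7 at 1443 ± 149, so that H2-K1 stood above H2-D1 in B6 and below it in F1. H2-Q6 followed at 318 ± 44.3 per kb in F1 spleen and 395 ± 26.2 in B6 spleen. Below these lay H2-T23 at 131 ± 11.2 in F1 and 160.4 ± 18.9 in B6. In B6 spleen H2-T22 (117.6 ± 19), Tap1 (91.9 ± 10.3) and H2-Q4 (38.9 ± 7.12) followed in that order. In F1 spleen H2-Q4 (105.6 ± 11.4) and H2-T22 (94.1 ± 10.8) came next and did not differ beyond their spread. Tap1 lay below both there, at 58.6 ± 7.24. H2-Q10 was the lowest in both, at 41.2 ± 2.58 per kb in F1 spleen and 25.1 ± 3.07 in B6 spleen. Blood gave the same 10 ranks as spleen within each model.

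**Figure D1:**
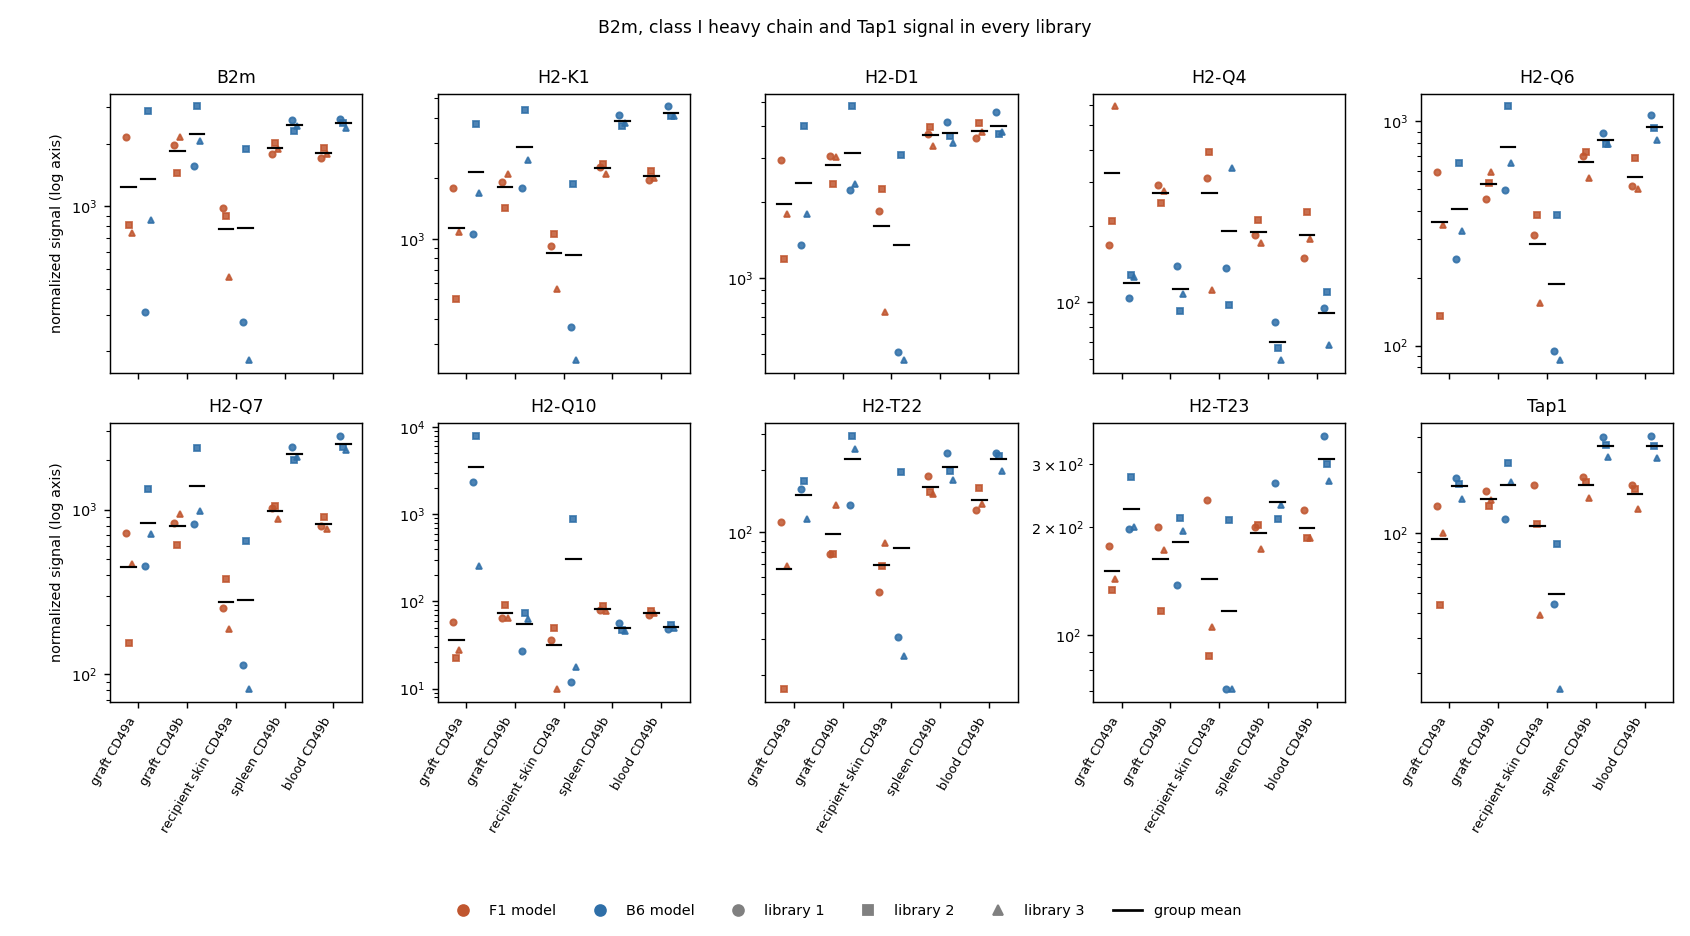
Signal of each of the 10 genes in every library on log axes, by population (x axis) and model (colour), with library numbers as symbols and black bars for group means. Circulating libraries lie close together, B6 recipient skin library 2 lies above libraries 1 and 3 of its group for 9 of the 10 genes, and H2-Q10 reaches 7979 in B6 graft CD49a library 2.

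The clearest pattern in the circulating cells was a difference between the models in H2-K1, H2-Q7 and H2-Q4, while H2-D1 overlapped. H2-K1 had a signal of 1960.3, 2176 and 2011 in F1 blood, against 4565, 4106 and 4077 in B6 blood. In spleen it had 2276, 2359 and 2109 in F1, against 4124, 3633 and 3769 in B6. The lowest B6 library stood above the highest F1 library by a wide margin in both tissues.

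H2-D1 had 3606, 4138 and 3786 in F1 blood, against 4550.1, 3714 and 3781 in B6 blood, and 3732, 3975 and 3334 in F1 spleen, against 4167, 3658 and 3447 in B6 spleen. These groups overlapped in both tissues. H2-Q7, a Qa-2 gene, had 799, 896 and 760.1 in F1 blood, against 2813, 2402 and 2311 in B6 blood. In spleen H2-Q7 had 1019.7, 1055 and 875 in F1, against 2414, 1993 and 2075 in B6. All F1 libraries lay below all B6 ones. H2-Q4 went the other way, with 150.4, 227 and 178 in F1 blood, against 95, 109.7 and 68 in B6 blood. In spleen H2-Q4 had 184, 212 and 172 in F1, against 83.9, 65.9 and 59.2 in B6, again without overlap.

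The light chain differed less. B2m had 1708, 1909 and 1781 in F1 blood, against 2640.1, 2515 and 2383 in B6 blood, and 1783, 2019 and 1894 in F1 spleen, against 2593, 2307 and 2442 in B6 spleen. Every F1 library lay below every B6 library. H2-Q10, low in both models, had 69.4, 78.3 and 73.5 in F1 blood, against 48.7, 54.2 and 49.3 in B6 blood, and 79.9, 87.9 and 78.3 in F1 spleen, against 56.9, 47.4 and 45.5 in B6 spleen. H2-T23 had 224, 187 and 187 in F1 blood, against 361, 301 and 269 in B6 blood. Counted over the members, F1 lay above B6 without overlap for H2-Q4 and H2-Q10 in blood (2 of 10, where 9.09% of the 16045 genes tested did) and in spleen (2 of 10, where 6.4% did). F1 lay below B6 without overlap for 7 of 10 in blood (8.41% of all genes) and 6 of 10 in spleen (7.55% of all genes), where H2-T22 overlapped in spleen and H2-D1 in both tissues.

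Differences were tested with limma on log2 of the signal plus 1, adjusted over all genes tested (Benjamini-Hochberg, threshold 0.05). With 1 spread shared by all 30 libraries, limma called 0 of 10 members between the models in blood, where 0.162% of genes were called and 2 members had an unadjusted p under 0.05, and 0 of 10 in spleen, where 0.175% of genes were called and 1 member had one. Replicates of the skin groups, 18 of the 30 libraries, correlated less with each other than those of blood and spleen. A fit of the 12 circulating libraries alone, added after the data were seen, tested 9515 genes. In it, 1 member was higher in F1 blood (1.24% of genes were) and 7 were lower (1.61% of genes). In spleen, 2 members were higher in F1 (0.977% of genes) and 3 were lower (0.578% of genes). The median change of the 10 members was -0.64 in blood and -0.32 in spleen on the log2 scale, beside -0.03 for all genes in each.

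In that fit, H2-Q7 fell by 1.61 ± 0.11 (SE) on the log2 scale in F1 blood, 3.06-fold, with an adjusted p of 3.42e-05 in limma, and by 1.14 ± 0.11 in F1 spleen, 2.2-fold (adjusted p = 0.00047). H2-K1 fell by 1.05 ± 0.08 in F1 blood, 2.07-fold (limma, adjusted p = 4.68e-05), and by 0.77 ± 0.08 in F1 spleen, 1.71-fold (adjusted p = 0.000478). H2-Q7 passed in 11 of 11 alternatives of each tissue and H2-K1 in 11 of 11 for blood and 10 of 11 for spleen, where its adjusted p in limma was 0.269 after quantile normalization. H2-Q4 rose by 1.02 ± 0.21 in F1 blood (limma, adjusted p = 0.0272, past the threshold in 5 of 11 alternatives) and by 1.44 ± 0.21 in F1 spleen, 2.71-fold (adjusted p = 0.00655, 11 of 11). B2m fell by 0.48 ± 0.07 in F1 blood, 1.4-fold (limma, adjusted p = 0.00556, 11 of 11), and by 0.37 ± 0.07 in F1 spleen, 1.29-fold (adjusted p = 0.038, 3 of 11).

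In F1 blood, with 8 members called in all, Tap1 fell by 0.78 ± 0.15, H2-Q6 by 0.75 ± 0.15, H2-T22 by 0.66 ± 0.15 and H2-T23 by 0.63 ± 0.14 on the log2 scale, with limma adjusted p between 0.018 and 0.0453 and with 3 to 7 of 11 alternatives past the threshold. The number called in blood was 3 without B6 blood library 1 or F1 blood library 3 (1.48% and 1.62% of genes were called) and 4 without B6 blood library 2 (1.49%). The number called in spleen, 5 in all, was 3 without B6 spleen library 2 or 3 (0.791% and 0.789% of genes) or F1 spleen library 1 or 3 (0.942% and 0.932%). In F1 spleen the changes of Tap1, H2-Q6, H2-T22 and H2-T23 were -0.65, -0.32, -0.31 and -0.29 and none passed. H2-Q10 rose by 0.71 ± 0.13 in F1 spleen (limma, adjusted p = 0.0257, 3 of 11) and had a change of 0.53 ± 0.13 in F1 blood (adjusted p = 0.0617). H2-D1 had a change of -0.06 ± 0.1 in F1 blood and -0.03 ± 0.1 in F1 spleen (limma, adjusted p = 0.84 and 0.964). With H2-Q6 and H2-Q7, which share 25.8% of the H2-Q7 stretches, added into 1 feature, the sum fell by 1.32 ± 0.12 in F1 blood (limma, adjusted p = 0.000238) and by 0.86 ± 0.12 in F1 spleen (adjusted p = 0.00547). H2-Q7 shares more of its stretches, 31.8%, with another class I gene, H2-Q5, which this sum leaves out.

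**Figure D2:**
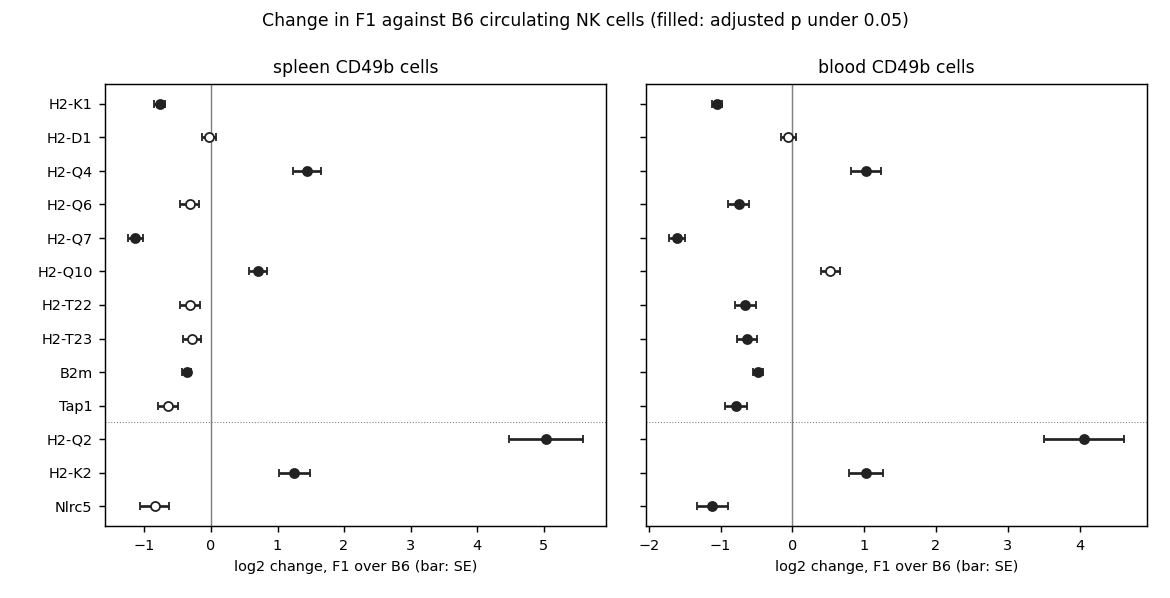
Fitted log2 change of F1 over B6 with its SE (x axis) for the 10 members and, below the dotted line, H2-Q2, H2-K2 and Nlrc5, in spleen (left) and blood (right) CD49b cells, from the fit of the 12 circulating libraries. Filled points have an adjusted p under 0.05. H2-K1, H2-Q7 and B2m lie left of 0 and H2-Q4, H2-Q2 and H2-K2 right of 0 in both tissues, while H2-D1 lies at 0.

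Ratios within a library do not depend on its scale. The H2-K1 signal was 0.53 ± 0.01 times that of H2-D1 in F1 blood and 1.06 ± 0.05 times in B6 blood, and 0.61 ± 0.02 in F1 spleen and 1.03 ± 0.06 in B6 spleen (SD). Exact permutation tests of each gave a two-sided p of 0.1, the smallest that 3 against 3 libraries allow. H2-Q4 over H2-D1 was 0.0478 ± 0.0066 in F1 blood and 0.0228 ± 0.00602 in B6 blood, and 0.0514 ± 0.00198 in F1 spleen and 0.0184 ± 0.00152 in B6 spleen, without overlap. H2-Q7 over H2-Q6 was 1.46 ± 0.13 in F1 blood and 2.66 ± 0.119 in B6 blood. B2m stood at 0.878 ± 0.00719 times H2-K1 in F1 blood and at 0.592 ± 0.0183 times in B6 blood.

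Of 21 other class I and class I-like genes in the table, 13 were tested in this fit, and 2 were higher and 0 lower in F1, the same pair in blood and spleen. H2-Q2, a class I gene that lies between H2-D1 and H2-Q4, had 84, 93 and 81.3 in F1 blood, against 3.94, 1.08 and 12.8 in B6 blood, and 86.7, 92.1 and 75 in F1 spleen, against 1.18, 0.924 and 3.2 in B6 spleen. It rose by 4.06 ± 0.56 in F1 blood (limma, adjusted p = 0.00295) and 5.03 ± 0.56 in F1 spleen (adjusted p = 0.000994). H2-K2, annotated as a transcribed pseudogene, rose by 1.03 ± 0.23 in F1 blood (limma, adjusted p = 0.0444) and 1.25 ± 0.23 in F1 spleen (adjusted p = 0.0268). The H2-Q2 signal in the F1 skin libraries was 20.4 to 76.8, and in the B6 skin libraries it was 0 to 5.54 in 8 of 9 and 147 in graft CD49a library 2.

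Of the pathway around the members, Nlrc5, the transactivator of class I genes, had 74.6, 84.3 and 86.5 in F1 blood, against 244, 136 and 170.3 in B6 blood. It was the 1 gene of 16 tested in the class I transcription control list that passed in F1 blood, where it fell by 1.12 ± 0.22 (limma, adjusted p = 0.0193), and its change in F1 spleen was -0.84 ± 0.22 (adjusted p = 0.102). Of the 5 immunoproteasome genes and the 8 peptide loading genes, 0 were called by limma in either tissue. The signal of class II genes, which B cells and dendritic cells express, also lay apart between the models in spleen, and its part in these results was not tested. The 6 class II genes summed to 38.5 to 84.9 in F1 spleen and 207 to 850 in B6 spleen, with Cd74 the most abundant of them in B6 spleen, and to 41.9 to 61.8 in F1 blood and 55 to 73.2 in B6 blood.

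Between spleen and blood no member was called. Over the 10 members the change of spleen over blood ran from -0.06 to 0.26 on the log2 scale in F1 and from -0.39 to 0.01 in B6. In the fit of all libraries, limma called 0 of 10 members in F1 and 0 of 10 in B6, where 0.00623% of genes were called in each and no member had an unadjusted p under 0.05. In the fit of circulating libraries, 0 of 10 were called in F1, where 0.399% of genes were, and 0 of 10 in B6, where 0.0% of genes were. In that fit 1 member had an unadjusted p under 0.05 in each model, H2-Q7 in F1 and H2-T23 in B6.

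CD49a+ cells of the recipient's own skin gave lower class I signal than spleen cells for most members on the deposited scale. B2m had 978, 892 and 455 in F1 recipient skin, against 1783, 2019 and 1894 in F1 spleen. In B6 it had 278, 1892 and 182 in recipient skin, against 2593, 2307 and 2442 in spleen. Libraries 1 and 3 of B6 recipient skin lay lowest and library 2 nearest to spleen.

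H2-K1 had 923, 1056 and 563 in F1 recipient skin, against 2276, 2359 and 2109 in F1 spleen, and 363, 1869.8 and 249.8 in B6 recipient skin, against 4124, 3633 and 3769 in B6 spleen. H2-Q7 had 253, 377 and 189 in F1 recipient skin, against 1019.7, 1055 and 875 in F1 spleen, and 114, 649 and 81.2 in B6 recipient skin, against 2414, 1993 and 2075 in B6 spleen. Neither gene overlapped between recipient skin and spleen. Tap1, whose product carries peptides to the heavy chains, had 173, 110.5 and 39.1 in F1 recipient skin, against 190.5, 179 and 149 in F1 spleen, where 1 library overlapped, and 44.2, 88 and 16.6 in B6 recipient skin, against 299.6, 275 and 239 in B6 spleen. Recipient skin lay below spleen without overlap for 7 of 10 members in F1 (11.7% of all genes) and 7 of 10 in B6 (16.3% of all genes).

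In F1, limma called 1 of 10 members lower, H2-Q7, and none higher, where 4.44% of genes were called lower. H2-Q7 fell by 1.9 ± 0.6 on the log2 scale, 3.72-fold (limma, adjusted p = 0.0315), and the changes of H2-K1, H2-D1 and B2m were -1.45, -1.34 and -1.37 (limma, adjusted p = 0.0773 to 0.154). The changes of H2-Q6, H2-Q10, H2-T22, Tap1 and H2-T23 were -1.31, -1.61, -1.28, -0.91 and -0.56, and that of H2-Q4 was 0.34 (limma, adjusted p = 0.0919 to 0.654). With H2-Q6 and H2-Q7 added into 1 feature, the change was -1.63 ± 0.57 and did not pass (limma, adjusted p = 0.0508). The H2-Q7 call also ended without F1 recipient skin library 1 or 3 or any 1 of the F1 spleen libraries (limma, adjusted p = 0.0614 to 0.0858), and with blood in place of spleen (0.0723). In B6, limma called 8 of 10 members lower and none higher, where 11.0% of genes were called lower. H2-Q7 fell by 3.56 ± 0.6, 11.8-fold (limma, adjusted p = 0.000314), H2-K1 by 2.79 ± 0.57, 6.92-fold (adjusted p = 0.00132), and Tap1 by 2.71 ± 0.52, 6.55-fold (adjusted p = 0.000771). B2m fell by 2.42 ± 0.66, 5.33-fold (limma, adjusted p = 0.00949), and H2-D1 by 2.04 ± 0.56, 4.12-fold (adjusted p = 0.00955). The changes of H2-Q6, H2-T22 and H2-T23 were -2.48, -1.92 and -1.2 (limma, adjusted p = 0.00202, 0.0185 and 0.0344). The 2 that did not pass in B6 were H2-Q4, with a change of 1.25 ± 0.49 (limma, adjusted p = 0.0546), and H2-Q10, with 0.23 ± 1.04 (adjusted p = 0.888). The median of the 10 members was -1.32 in F1 and -2.23 in B6, beside 0.35 and 0.4 for all genes.

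Leukocyte transcripts were also lower in these libraries. The pan-leukocyte level was 35.1, 18.9 and 13% of the circulating level in F1 recipient skin and 15.3, 78.8 and 13.1% in B6 recipient skin, and of the 19 pan-leukocyte genes limma called 12 lower and 1 higher in F1 and 11 lower and 0 higher in B6. Relative to those transcripts (the leukocyte scale), the median change of the members was 0.89 in F1 and -0.23 in B6, while that of all genes was 2.13 in F1 and 2.02 in B6. On that scale limma called H2-Q4 and H2-T23 in F1, both higher (2.54 and 1.64, adjusted p = 0.0133 and 0.0153), where 38.2% of genes were called higher. In B6 it called H2-Q7 lower at -1.56 (limma, adjusted p = 0.0137), where 1.05% of genes were lower, and H2-Q4 and H2-Q10 higher at 3.24 and 2.16 (adjusted p = 0.00308 and 0.0328), where 36.2% were higher. H2-Q7 thus fell in B6 on both scales, and the other 7 falls did not pass on the leukocyte scale. Without B6 recipient skin library 2, limma called 8 members lower on the deposited scale, where 17.4% of genes were, and 1 higher, where 25.6% were. Without library 1 or library 3 of B6 recipient skin it called 4 lower (5.66% and 6.86% of genes). With only the compared groups in the fit it called 0 (4.79% of genes). How far leukocyte content accounts for the lower values was not tested.

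**Figure D3:**
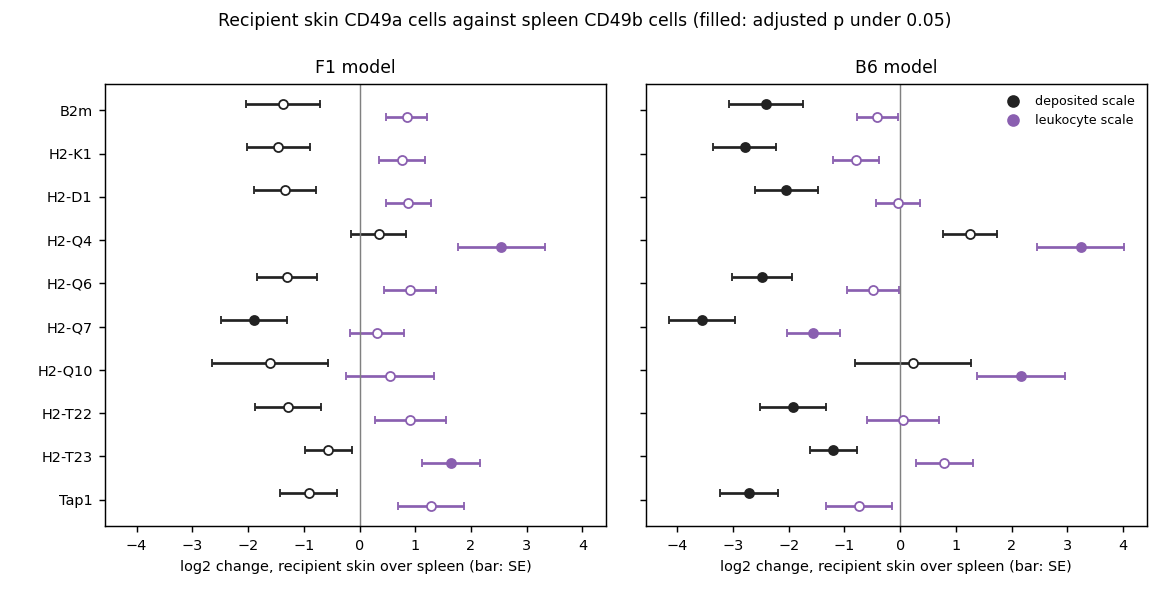
Fitted log2 change of recipient skin CD49a over spleen CD49b cells with its SE (x axis) for the 10 members in F1 (left) and B6 (right), on the deposited scale (black) and the leukocyte scale (purple). Filled points have an adjusted p under 0.05. H2-Q7 in B6 is the only member left of 0 and filled on both scales, and H2-Q4 is filled right of 0 on the leukocyte scale in both models.

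The immunoproteasome genes, which encode proteasome subunits that favour class I peptides and their activator, were called lower for 4 of 5 in F1 recipient skin and 5 of 5 in B6, none higher, where 4.44% of all genes were lower in F1 and 11.0% in B6. The pan-leukocyte genes fell in the same comparisons, and their part in these falls was not tested. Psmb8 fell by 2.39 ± 0.61 in F1 (limma, adjusted p = 0.00949) and 3.34 ± 0.61 in B6 (adjusted p = 0.000542), and Psmb9 by 2.25 ± 0.54 in F1 (adjusted p = 0.00657) and 2.83 ± 0.54 in B6 (adjusted p = 0.000766). Of the 8 peptide loading genes, 1 was called lower in F1 and 3 in B6, with Tap2, the partner of Tap1, at -2.11 in F1 and -1.97 in B6 (limma, adjusted p = 0.0107 and 0.0102). Of 19 genes of class I transcription control, 1 was called higher and 1 lower in F1, Ifngr2 and Nfyb. In B6, 6 were called lower, with Nlrc5 at -2.16 and Irf2 at -3.03 (limma, adjusted p = 0.0068 and 0.00787). Over all 16045 genes tested, 1812 were called higher in F1 and 2866 in B6. Hfe, a class I-like gene of iron uptake control, rose in both, by 3.38 ± 0.73 in F1 and 3.37 ± 0.73 in B6 (limma, adjusted p = 0.00321 and 0.00198), with 131, 105 and 23.2 in F1 recipient skin and 3.84 to 11.3 in F1 spleen. H2-T10, which shares 55.8% of the H2-T22 stretches, fell by 4.52 ± 0.56 in B6 (limma, adjusted p = 1.1e-05), with 0, 1.07 and 5.27 in recipient skin and 44 to 59.4 in spleen.

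In CD49b+ cells of the graft no member was called against spleen. B2m had 1968, 1446 and 2148 in F1 graft CD49b cells, against 1783, 2019 and 1894 in F1 spleen, and 1554, 3029 and 2070.4 in B6 graft CD49b cells, against 2593, 2307 and 2442 in B6 spleen. H2-K1 had 1919, 1427 and 2095 in F1 graft CD49b cells, against 2276, 2359 and 2109 in F1 spleen, and 1790.0, 4364 and 2455 in B6 graft CD49b cells, against 4124, 3633 and 3769 in B6 spleen. In F1, H2-K1, H2-D1 and H2-T22 lay lower in the graft without overlap (17.1% of all genes did) and H2-Q4 higher (29.3%), and the other 6 members overlapped. In B6, Tap1 lay lower without overlap (12.8% of all genes) and H2-Q4 higher (21.9%), and the other 8 overlapped. In F1, limma called 0 of 10 members where 12.2% of genes were called. In B6, limma called 0 of 10 members where 4.07% of genes were called. No member had an unadjusted p under 0.05 in either. The changes of the members ran from -0.8 to 0.52 in F1 and from -0.8 to 0.68 in B6, with medians of -0.3 and -0.27 beside 0.26 and 0.33 for all genes. The pan-leukocyte level was 41.8 to 48.8% in F1 and 47.4 to 88.5% in B6 graft CD49b cells. Relative to it, the median change of the members was 0.8 in F1 and 0.49 in B6, beside 1.11 and 0.9 for all genes.

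H2-Q10 was the exception in CD49a+ cells of the B6 graft. It had 2323, 7979 and 256 there, against 58.6, 22.4 and 27.9 in F1 graft CD49a cells, and all 3 B6 libraries lay above every F1 one. In B6 recipient skin CD49a cells it had 11.7, 883 and 17.6, so that library 2 exceeded the lowest graft library. In the B6 graft CD49b cells it had 27.2, 74.1 and 62.7, and in the 12 circulating libraries of both models 45.5 to 87.9. In F1 graft CD49a against B6 graft CD49a cells, limma called 1 of 10 members lower, H2-Q10, where 0.143% of genes were. H2-Q10 fell by 5.62 ± 1.04 on the log2 scale, 49.2-fold (limma, adjusted p = 0.00885). In B6 graft CD49a against B6 recipient skin CD49a cells, limma called 1 of 10 higher, again H2-Q10, where 0.193% of genes were, and it rose by 4.82 ± 1.04, 28.3-fold (adjusted p = 0.0429). Against B6 graft CD49b cells its change was 5.04 ± 1.04 (limma, adjusted p = 0.0718), 0 of 10 members were called where 0.0125% of genes were, and H2-Q10 was the 1 member with an unadjusted p under 0.05.

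These H2-Q10 calls rest on few libraries. The rise over B6 recipient skin passed in 8 of 18 alternatives, and its limma adjusted p was 0.121 without graft library 1, 0.104 without graft library 2, and 0.184 and 0.119 without recipient skin library 1 and 3. The difference from F1 graft cells passed in 15 of 18, with an adjusted p of 0.0612 in limma without B6 graft library 1. Skin cell markers differed widely among the same B6 graft CD49a libraries: the 10 keratinocyte genes, Krt14 the most abundant, summed to 4048, 45.7 and 1684, and the 10 fibroblast genes, Col3a1 the most abundant, to 4913, 22.8 and 1354 in libraries 1, 2 and 3. The H2-Q10 signal was highest in library 2, where both sums were lowest and the 10 NK cell genes summed to 6915, against 295 in library 1 and 1633 in library 3. H2-Q10 over H2-D1 was 1.72, 1.98 and 0.143 in libraries 1, 2 and 3, with library 1 near library 2. Which cells gave the H2-Q10 signal was not tested. In spleen the keratinocyte sum was 8.23 to 15.8 and the fibroblast sum 19.5 to 123 in B6. Markers of other cells were also present in B6 graft CD49a cells. Macrophage and monocyte genes summed to 362 to 1165 there and to 37.4 to 114 in B6 spleen. Endothelium genes summed to 466 to 606 and to 94.8 to 322. The class II sums (588 to 1740 and 207 to 850) overlapped, as did those of B cell and neutrophil genes.

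The graft of the B6 model lacks B2m while its heavy chain genes are not named as altered, so the balance of light and heavy chain RNA was compared within libraries. B2m stood at 0.732, 0.678 and 0.413 times H2-D1 in F1 graft CD49a cells and at 0.23, 0.713 and 0.479 times in B6 graft CD49a cells. The lowest ratio, in B6 graft library 1, came with a pan-leukocyte level of 9.41% and the largest keratinocyte and fibroblast sums of that group. In graft CD49b cells B2m over H2-D1 was 0.646, 0.611 and 0.708 in F1 and 0.695, 0.631 and 0.877 in B6. In spleen it was 0.478, 0.508 and 0.568 in F1 and 0.622, 0.631 and 0.709 in B6. In recipient skin CD49a cells it was 0.529, 0.395 and 0.619 in F1 and 0.542, 0.614 and 0.383 in B6. An exact permutation test of B6 graft CD49a against B6 recipient skin CD49a cells gave a two-sided p of 0.8 for this ratio. The part of graft cells in the ratio was not tested.

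Without B6 recipient skin library 2, limma called 9 of 10 members higher in B6 graft CD49a than in B6 recipient skin CD49a cells, where 5.17% of genes were, while with all libraries 8 had an unadjusted p under 0.05 and 1 was called. The median change with all libraries was 1.4, beside 0.06 for all genes. H2-T10 had 39.3, 38.4 and 17.8 in B6 graft CD49a cells, against 0, 1.07 and 5.27 in B6 recipient skin, and rose by 3.72 ± 0.56 (limma, adjusted p = 0.00301), and so did C920025E04Rik, the symbol the table uses for H2-T-ps, by 5.29 ± 1.16 (adjusted p = 0.0448). C920025E04Rik had 1800.4, 9.16 and 289 in the B6 graft libraries, against 0, 20.6 and 3.05 in B6 recipient skin, and the groups overlapped. In F1 graft CD49a against F1 recipient skin CD49a cells, limma called 0 of 10 members where 0.0249% of genes were called, and no member had an unadjusted p under 0.05. The changes ran from -0.39 for H2-T22 to 0.57 for B2m. Within the F1 graft, CD49a against CD49b cells gave 0 of 10 in limma where 0.00623% of genes were called, also with no member at an unadjusted p under 0.05, and changes from -1.1 for H2-Q10 to 0.03 for H2-Q4.

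In the graft, H2-Q4 also stood higher in F1 than in B6 libraries. H2-Q4 had 291, 247 and 276 in F1 graft CD49b cells, against 139, 92.3 and 108 in B6 graft CD49b cells, without overlap, and its fitted change was 1.27 ± 0.49 (limma, adjusted p = 0.573). In graft CD49a cells it had 168, 210.3 and 595 in F1, against 104, 128 and 126 in B6, also without overlap (fitted change 1.21 ± 0.49, limma adjusted p = 0.497). There H2-Q10, H2-T22, H2-T23 and Tap1 lay lower in F1 without overlap. The share of all genes without overlap between the models in the graft is not given here. Over the members limma called 0 of 10 between F1 and B6 graft CD49b cells, where 0.181% of genes were called and 1 member, H2-Q4, had an unadjusted p under 0.05. H2-K1 over H2-D1 was 0.63, 0.603 and 0.691 in F1 graft CD49b cells and 0.8, 0.909 and 1.04 in B6 graft CD49b cells, and 0.615, 0.418 and 0.601 in F1 graft CD49a cells and 0.786, 0.929 and 0.937 in B6 graft CD49a cells, with no overlap in either (exact permutation test, two-sided p = 0.1 each, the smallest the design allows). In recipient skin the ratio was 0.499, 0.467 and 0.765 in F1 and 0.708, 0.607 and 0.526 in B6, and the groups overlapped (exact permutation p = 0.7). Between F1 and B6 recipient skin, limma called 0 of 10 members where 0.661% of genes were called and 1, Tap1, had an unadjusted p under 0.05, with a change of 1.15 ± 0.52 (adjusted p = 0.321). Without B6 recipient skin library 2 limma called 2 higher in F1, where 5.89% of genes were.

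**Figure D4:**
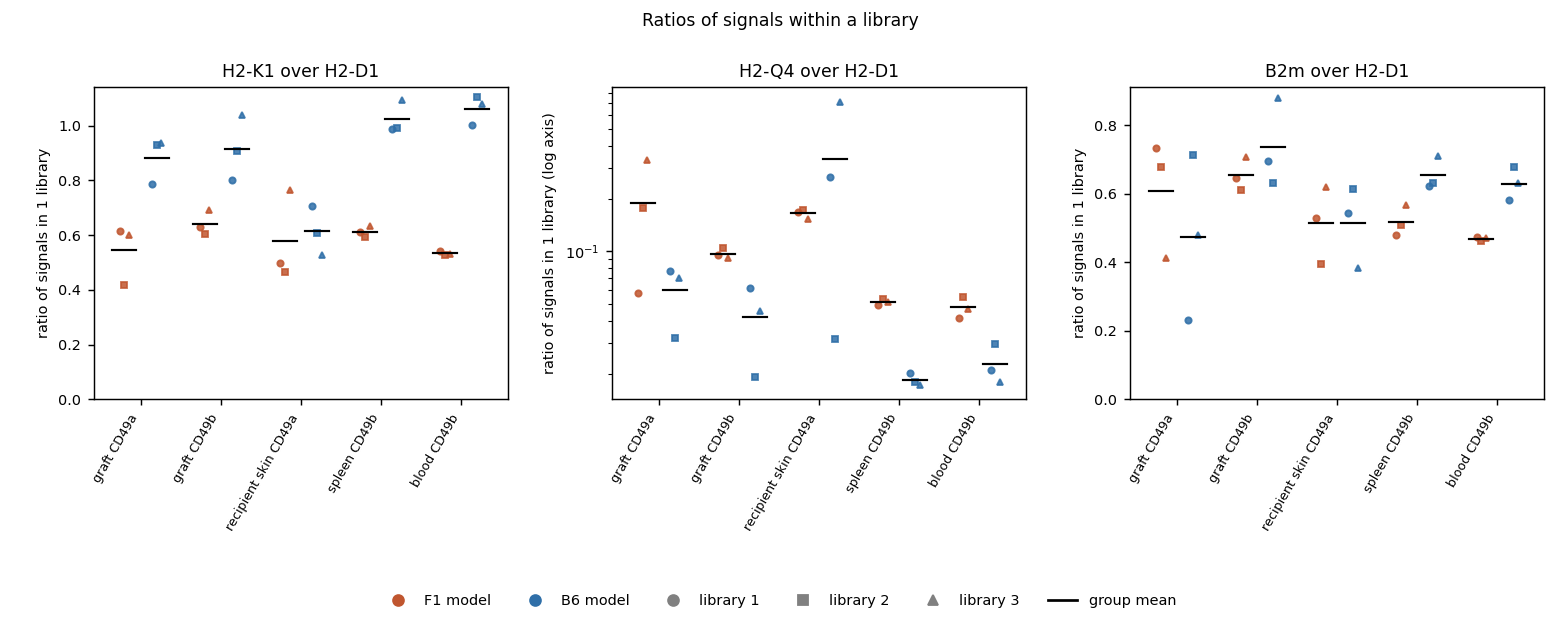
Ratio of the signals of 2 genes in the same library, by population (x axis) and model (colour), with library numbers as symbols and black bars for group means; the middle panel has a log axis. H2-K1 over H2-D1 is lower in F1 than in B6 in every library of blood, spleen and both graft populations, and overlaps in recipient skin.

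Whether the tissue changes themselves differed between the models was tested directly. For graft CD49b minus spleen, F1 minus B6, limma called 0 of 10 members, where 0.0% of genes were called and no member had an unadjusted p under 0.05. For recipient skin minus spleen, limma called 0 of 10 members, where 0.0125% of genes were called and 1 member, Tap1, had an unadjusted p under 0.05. The difference for Tap1 was 1.8 ± 0.73 (limma, adjusted p = 0.675). The 8 falls called in B6 and the 1 called in F1 recipient skin are thus not shown to differ between the models.

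Some other class I rows switched between circulating libraries of 1 group, while no member did. H2-Q1, which shares 7.9% of the H2-Q10 stretches, had 8188, 12024 and 0.54 in B6 spleen, 0.314, 8626 and 0.464 in B6 blood, and 0.285 to 8.34 in all 15 F1 libraries. H2-T3 had 802, 0.375 and 524 in F1 blood, and H2-M2 had 153, 1.44 and 186 in F1 spleen. Among the members, the circulating values with the widest ratio of highest to lowest within a model were those of H2-Q4 in B6, 59.2 to 109.7.

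Most members moved together across libraries. Over the 30 libraries, on the log2 scale, H2-K1 correlated with H2-Q7 at r = 0.99, with H2-Q6 at 0.967 and with H2-D1 at 0.931, and B2m with H2-D1 at 0.942, while H2-Q4 ran against H2-K1 at -0.53. In the 18 skin libraries these were 0.989, 0.96, 0.946, 0.938 and -0.329. The genes most like the mean of the members were Psmb8 at 0.943 (0.951 in skin libraries), Tagln2, Wdfy1, Psmb10 and Ly6c2, and those most like B2m were Fxyd5 at 0.946 (0.935 in skin libraries), Shisa5, Elf1, Rhog and Cd53. The leukocyte content of a library enters all of these values, and Cd53 is itself a pan-leukocyte transcript, so the likeness is a description.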

How the data were processed

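The deposited table holds signal values made by the authors with Salmon and DESeq2 on GRCm38 (mm10), per the submitters' processing notes. Their versions and the annotation: not given in the sources used here. The values are not whole, and only 15.0 to 22.1% per library were whole multiples of a common step (tolerance 0.1), so reads were not recovered, depth is unknown and no count test was run. Of 30616 entries, 30587 had a usable name and value, and 2 columns matched no label and were left out. Groups follow the labels.

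Values were tested as log2(signal + 1), a scale that understates changes of low genes, with limma 3.58.1 in R 4.3.3: 10 group means, trended and robust empirical Bayes, Benjamini-Hochberg adjustment over the 16045 genes that passed the filter, threshold 0.05. A fit of the 12 circulating libraries alone (9515 genes), with its own alternatives, and a fit of the 18 skin libraries alone were added after the data were seen. The code was tested on simulated data. Ratios were compared by exact permutation tests, two-sided. The leukocyte scale divides each library by the geometric mean of 19 pan-leukocyte transcripts. Python 3.11.15, numpy 2.4.6, pandas 2.3.3, scipy 1.17.1 and matplotlib 3.10.9 were used. Positions and transcript lengths come from GENCODE on GRCm38, and promoters from RefSeq on GRCm38.p6, where all 10 members matched.

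All 10 members were tested in every comparison; the rule was to name all of them, and those not called are in places given only by counts, medians or ranges. From the pathway lists, up to 3 genes per comparison with the smallest adjusted p are named, H2-Q1, H2-T3 and H2-M2 were chosen after their values were seen, and the 5 genes with the highest Pearson r outside the members are given as most like them. The members and lists were chosen with earlier results of these data known. Libraries with the same number deviated together (r over 0.1 for all 3 numbers: 0.137, 0.403 and 0.15) for 1 pair of groups, B6 graft CD49a and B6 recipient skin. Alternatives covered the pseudocount, filter, normalization, library weights, a replicate block, the samples fitted and single libraries left out.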

Additional observations from a re-analysis of the deposited data

How the results depend on the processing

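Among counts of called members recomputed under other settings, 192 were equal to the reported count or within 1.5 times it, 15 were higher and 15 lower. Most comparisons had a reported count of 0, and counts of 0 that stayed 0 are among the 192. Relative to leukocyte transcripts, the B6 recipient skin changes of H2-T22 and H2-T23 against spleen were 0.051 and 0.79, and the F1 change of H2-Q7 was 0.31, opposite in sign to the reported ones. There, 3 members were called in B6 recipient skin against spleen, 2 in F1, 3 in B6 graft CD49a against recipient skin and 1 against graft CD49b. Library weights gave 4 in F1 recipient skin against spleen, where 2982 genes were called higher and 1697 lower. They gave 2 and 1 for the same B6 graft CD49a comparisons, where 40 and 4 genes were called higher and 7 and 23 lower. Between the models they gave 3 in blood and 2 in spleen, where 199 and 146 genes were higher and 54 and 74 lower. The B6 graft CD49a count against recipient skin was 0 with a pseudocount of 5, quantile normalization, equal totals without the satellite-like genes, plain eBayes, only the groups compared or skin libraries alone; against graft CD49b it was 1 with a filter at 50. Quantile normalization gave 3 in F1 recipient skin against spleen, where 734 genes were called higher and 601 lower, and blood as reference gave 0. With only the groups compared, counts were 0 in B6 recipient skin against spleen, 2 and 3 between the models in blood and spleen, and 0 in graft CD49a, which was also 0 in skin libraries alone. In circulating libraries alone, 8 members in blood and 5 in spleen became 4 and 2 after quantile normalization and 3 and 3 with equal totals. Member counts in this section without gene counts beside them describe the settings and are not a result about the members.

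With single libraries left out, counts ran 4 to 9 in B6 and 0 to 1 in F1 recipient skin against spleen, 0 to 9 in B6 graft CD49a against recipient skin and 0 to 1 against graft CD49b, 0 to 1 between the models in graft CD49a, 0 to 2 in recipient skin, and 3 to 7 in blood and 3 to 4 in spleen for circulating libraries alone. The cause of these shifts was not tested. The replicate block gave 1 member in B6 graft CD49a against recipient skin, as without it. There, libraries with the same number deviated together, but the labels do not say whether they share a mouse. In other comparisons the block gave 8 in B6 recipient skin against spleen, where 3016 genes were called higher and 1853 lower. It gave 1 in B6 graft CD49a against CD49b, and 7 in blood and 5 in spleen for circulating libraries alone. An edgeR test on recovered reads was not run, since whole reads were not recovered. Precision is limited by 3 libraries a group and by the unknown read depth.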
